A study of Caenorhabditis elegans with 8 samples.

Results

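Genes for germline RNA-binding regulators, Y-box proteins and the Piwi protein PRG-1 were examined in Caenorhabditis elegans. The regions were those the authors listed as specific to a strain with FLAG-tagged MSTR-1, by immunoprecipitation of RNA. The set holds 9 genes of the 19983 protein-coding genes in the RefSeq gene table of WBcel235: gla-3, mex-3, puf-7, atx-2, cey-1, cey-2, cey-3, cey-4 and prg-1. They were chosen by function and by the presence and fold of their regions in an earlier look at these data. Those regions are therefore described here and not tested. A gene was given a region where at least 1 base of the region fell inside its span. Of the 9 genes, 6 had a region (66.7%), 8 regions in all out of 1207, and cey-2, cey-3 and cey-4 had none. Over all protein-coding genes the share with a region was 4.77%, and because the set was drawn from these same regions nothing is read from that contrast.

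RNA immunoprecipitation and sequencing (RIP-seq) was done on whole lysate of young adult worms kept at 25 °C and fixed with 2% formaldehyde for 30 min. The tagged strain, WD656, carries the allele on49 of mstr-1 (F22D6.2, chromosome I), which adds a 3xFLAG tag to MSTR-1 at its own gene, and the control is the wild type N2, without FLAG. A RIP and an input were taken from each strain, giving 4 groups of 2 biological replicates. The authors deposited 1 list, of the regions they found in WD656 only, whose names all carry the second RIP replicate of WD656, with 1 set of values per region and none per library. No value below has a replicate error, and fewer cells of a type and less RNA per cell cannot be told apart in whole worms. Of marker genes chosen for the tissues of the worm, 0 of 7 germline, 1 of 6 oocyte, 0 of 5 sperm, 0 of 6 intestinal, 0 of 5 epidermal, 1 of 5 muscle and 1 of 6 neuronal genes had a region. Over all protein-coding genes the share was 4.77%, and marker sets this small cannot show that a tissue is absent. The list of regions holds no expression levels, so the germline label of the set could not be checked against it.

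RNA-binding proteins control much of gene expression in the worm germ line, where messages are made early, stored, and translated or destroyed later. PUF, KH and CCCH zinc finger proteins bind 3′ untranslated regions of messages and repress or stabilise them. Y-box proteins carry a cold shock domain and package messages broadly, and ataxin-2 works with poly(A)-binding protein in the control of translation. PRG-1 is a Piwi-class Argonaute that carries piRNAs and guards the germ line against foreign transcripts.

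The authors' fold is the treatment over the control at the summit, the highest point of a region. The 8 regions had folds of 1.50 to 3.73 with a median of 2.21, while the median over all 1207 regions was 2.10 (quartiles 1.78 and 2.49). Folds of 2 or more were seen in 5 of the 8 regions and in 58.4% of all regions. The authors' −log10 q ran from 1.31 to 27.3 in the 8, with a median of 4.06 against 5.41 in the whole list. The reads behind each fold were recovered from the fold and its p-value. They gave a median summit pileup of 51 reads in the 8 regions and 55 in all. The count of genes depended on the rule. When a region had to have its summit, or at least 50% of its bases, in the span, the same 6 genes were counted, beside 4.7% of all protein-coding genes in both cases. Without regions that share more bases with another gene 5 remained (4.67% of all genes), and without regions over 2 or more protein-coding genes also 5 (4.24%). Regions with a fold of at least 2 left 5 genes (2.98%), and regions with a −log10 q of at least 5 left 3 (2.9%). Apart from the region over gla-3 the regions were 240 to 779 bp wide. Those of mex-3 (779 bp) and puf-7 (700 bp) were wider than the list's median of 642 bp, and the other 5 were narrower.

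**Figure D1:**
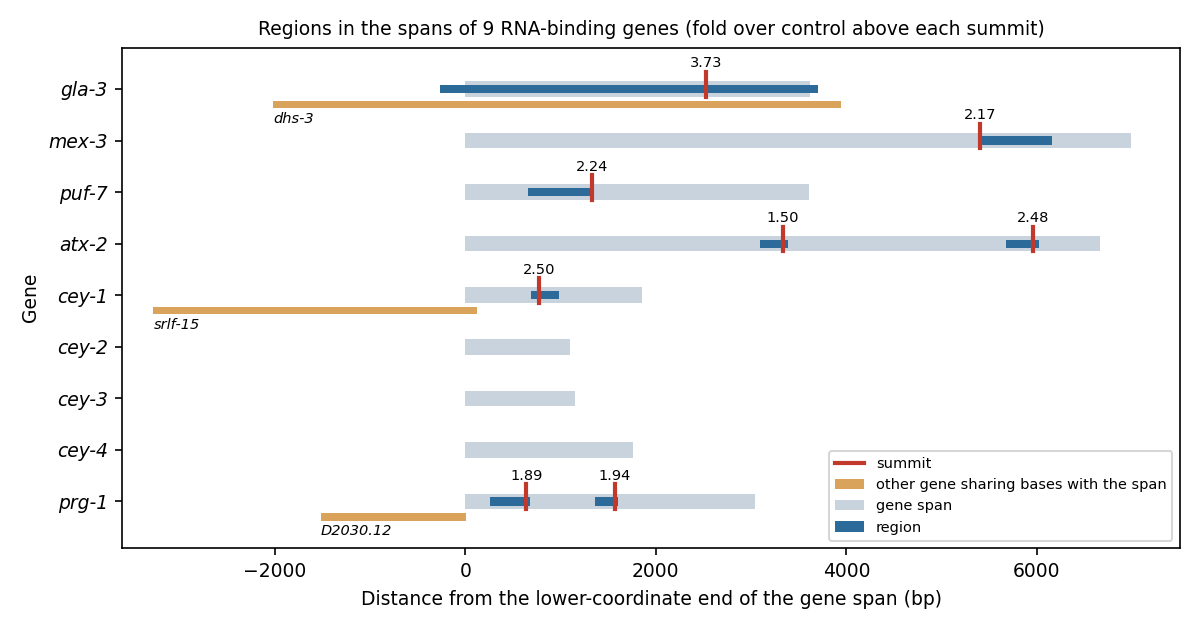
Gene spans of the 9 genes (grey), their regions (blue), summits (red lines, with the authors' fold above) and other annotated genes that share bases with a span (orange), in bp from the lower-coordinate end of each span. The region over gla-3 covers the whole span and lies inside dhs-3, the other 7 regions cover short stretches, and cey-2, cey-3 and cey-4 have none.

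The highest fold belonged to a region that cannot be given to 1 gene. gla-3 (T02E1.3) encodes a CCCH zinc finger protein of the TIS11 type that binds the MAP kinase MPK-1 and limits cell death in the germ line. Its span, chromosome I 8214376 to 8217996, lies wholly within that of dhs-3 (8212362 to 8218324), a short-chain dehydrogenase of lipid droplets. The region at 8214106 to 8218078 covers all 3621 bp of gla-3 and runs 270 bp past one end and 82 bp past the other. All 3973 bp of the region lie in dhs-3, so it overlaps dhs-3 more than gla-3. Its summit at position 8216901 is inside both genes, and without strand the reads of the 2 cannot be separated. The summit pileup was 53 reads (exact 95% Poisson interval 39.7 to 69.3) over a control level of 13.5. This is the lowest level in the list and is shared by 304 of the 1207 regions, as a minimum background level would be, so the fold is not set against a control level of its own. The fold was 3.73, 28th of 1207, and the −log10 q was 14.1. Of 391 other regions with a control level within 20% of this one, 15 had a higher fold. Only 27 regions of the list were wider.

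The remaining regulators of message translation each had regions to themselves. mex-3 (F53G12.5) encodes a KH-domain protein that represses messages in the germ line and early embryo and helps to keep germ cells from turning into somatic cells. It has the longest span of the 9 genes, 6986 bp at chromosome I 127285 to 134270, and its region at 132666 to 133444 covers 11.2% of that. The summit held 40 reads (28.6 to 54.5) over a control level of 17.9, a fold of 2.17 with a −log10 q of 3.90. By fold it was 545th, near the middle of the list, and 150 of 242 other regions of like control level were higher. An unlabelled last column of the list, which holds 0, 1 or 2, was 1 for mex-3 and 0 for the other 7 regions. It was above 0 in 24.8% of all regions, and no source used here says what it counts.

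puf-7 (B0273.2) belongs to the PUF family, whose members bind the 3′ ends of messages. Its span is 3610 bp at chromosome IV 5486713 to 5490322, and the region at 5487369 to 5488068 covers 19.4% of it. With 37 reads (26.1 to 51.0) over 15.96, it had the smallest pileup of the 8 regions. The fold was 2.24 and the −log10 q 3.90, and 308 of 498 regions of like control level had a higher fold. Among the 12 genes of the PUF family, a grouping made after the regions were seen, puf-9 (1.75) was the other gene with a region. puf-6, a close relative of puf-7 on chromosome II, had none. The sources used here do not say how reads shared by related genes were counted.

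atx-2 (D2045.1) encodes the worm ataxin-2, which acts in translation, germ cell proliferation and sex determination. Its span is 6663 bp at chromosome III 10461389 to 10468051, and it held 2 regions separated by 2297 bp. The region at 10467069 to 10467406 had 49 reads (36.3 to 64.8) over 19.1, for a fold of 2.48 at a −log10 q of 6.60. The region at 10464488 to 10464771 had more reads, 58 (44.0 to 74.98), but over a control level of 38.3, so its fold was 1.50. That fold was the lowest of the 8. Its −log10 q of 1.31 was also the lowest of the 8, and 3 regions of the whole list, this one included, had a value that low or lower. The lowest −log10 q of any region was 1.30, and the threshold the authors set is not stated.

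Of the 4 Y-box genes, cey-1 alone had a region. Y-box proteins bind messages with little sequence preference. In the worm, cey-1 and cey-4 are made in soma and germ line, while cey-2 and cey-3 belong to the germ line. cey-1 (F33A8.3) spans 1859 bp at chromosome II 11039348 to 11041206. Its region at 11040035 to 11040334 is 300 bp wide and lies clear of srlf-15, which shares 128 bp with the end of the cey-1 span. The summit held 198 reads (171.4 to 227.6) over a control level of 78.5, the deepest coverage and the highest control level of the 8. The fold of 2.50 ranked 299th, and the −log10 q of 27.3 ranked 95th and was the highest of the set. Of the 54 other regions of like control level, 7 had a higher fold, and their median was 1.84.

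The 3 Y-box genes with no region were the shortest of the 9, with spans of 1100 to 1758 bp. Spans of the 6 genes with a region were 1859 to 6986 bp, and the median over all protein-coding genes was 2005 bp. cey-2 (F46F11.2) lies at chromosome I 5619569 to 5620668 and cey-3 (M01E11.5) at 5571796 to 5572949, with 46619 bp between them. The nearest region to cey-3 was 1786 bp away, in pqn-52, with a fold of 2.30. The nearest to cey-2 was 9353 bp away, in vha-10, at 2.23. cey-4 (Y39A1C.3), on chromosome III at 10866946 to 10868703, had its nearest region 50552 bp away, in sca-1, at 1.70.

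Each region carries a number in its name. The numbers run in order of position on each chromosome up to 1464, and 257 of them do not occur in the list. The regions on either side of cey-3 are numbered 91 and 92, and those on either side of cey-2 are 92 and 93, so no number is missing at either gene. Between the regions flanking cey-4, numbered 701 and 703, 1 number is missing. Numbers are also missing around genes with a region, 1 at mex-3 and 2 at cey-1. The sources used here do not say what the missing numbers stood for. The list gives no read depth where there is no region, and the smallest pileup of any listed region was 26 reads. A gene without a region is therefore one that did not enter the list, and its enrichment has no value here.

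**Figure D2:**
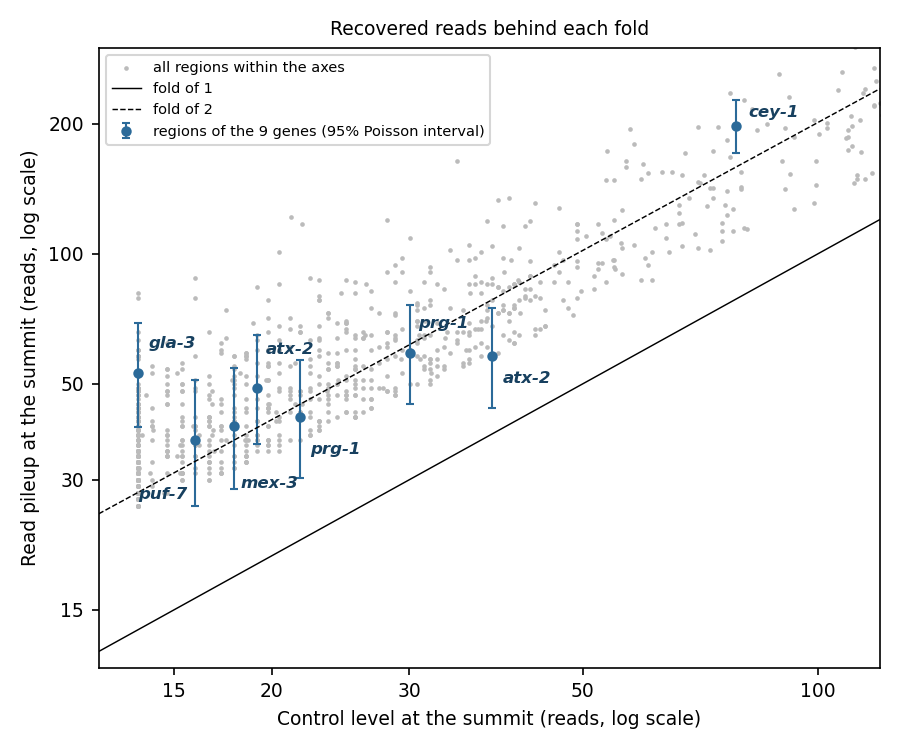
Recovered read pileup against control level at the summit, both on log axes in reads, for the 8 regions of the 9 genes (blue, with exact 95% Poisson intervals of the pileup) and all other regions within the axes (grey; 193 regions with higher values lie outside). Among the 8 regions, that of cey-1 has the highest coverage, with 198 reads over 78.5. The region over gla-3 sits at the lowest control level, and the other 6 lie between 37 and 59 reads.

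The Piwi gene had a pair of regions. prg-1 (D2030.6) spans 3039 bp at chromosome I 7585329 to 7588367, and its regions lie 685 bp apart. The region at 7585592 to 7586007 had 42 reads (30.3 to 56.8) over 21.7, for a fold of 1.89 at a −log10 q of 2.70. The region at 7586693 to 7586932 had 59 reads (44.9 to 76.1) over 30.0, for a fold of 1.94 at a −log10 q of 4.22. The folds of the 2 regions differed by less than their counting intervals, and both were under the list's median of 2.10. Among other regions of like control level, 173 of 230 had a higher fold than the first and 98 of 171 than the second. Neither touched D2030.12, which shares 12 bp with the end of the prg-1 span.

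prg-2, annotated as a pseudogene and a close relative of prg-1, had a region of its own on chromosome IV at 6527042 to 6527311. Its fold was 2.28 from 32 reads (21.9 to 45.2) over the same shared minimum control level of 13.5. Among 37 genes of the Argonaute and piRNA pathway other than prg-1, prg-2 was the only gene with a region (2.70%, exact 95% interval 0.0684 to 14.2). None of the 36 protein-coding genes among them had one, beside 4.77% of all protein-coding genes. The sources used here do not say how reads that match both prg-1 and prg-2 were placed, so both sets of values are uncertain in that respect.

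Related genes were described from 3 lists drawn up by function with earlier results of these data known. The lists leave out the 9 genes, 6 of which have a region, so their counts are of the other genes only. Of 40 other germline translational regulators, 3 had a region (7.5%, interval 1.57 to 20.4), against 4.77% of all protein-coding genes. The highest was ccch-1, a CCCH zinc finger gene, with 2.55 and 1.90 in its 2 regions, the weaker of which shares 186 bp with the non-coding RNA gene F38B7.14. The others were puf-9 and larp-1, the La-related protein gene, whose 2 regions had 1.72 and 1.65. None of gld-1, the fbf genes, the oma genes, nos-3, pos-1, mex-1, mex-5 and mex-6, which also regulate germline messages, had a region.

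Of 30 genes of P granules and other messenger ribonucleoproteins, 6 had a region (20%, interval 7.71 to 38.6), again beside 4.77% of all protein-coding genes. gtbp-1, the worm G3BP of stress granules, had 2.23 from 44 reads over 19.1. ife-1, an eIF4E of P granules, had 2.07 from 54 reads over 25.5. The DEAD-box helicase genes laf-1 (1.91 and 1.75) and vbh-1 (1.71) came next. The last 2 of the 6 were the poly(A)-binding protein genes pab-2 (1.64, in a region with 44.6% of its bases in pab-2) and pab-1, named after their values were seen, to complete the group. pab-1, with 68.4% of its region in the span, had the lowest fold of the 7 regions of these genes, 1.33. Its coverage was the deepest of the 7, with 445 reads (404.6 to 488.3) over 333.8. The median fold over the 7 regions of the P granule list was 1.75, as it was over the 5 regions of the translational regulators. It was 2.21 in the 8 regions of the 9 genes and 2.10 in all. Since the 9 genes were chosen with their folds known, no test of that difference was made.

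**Figure D3:**
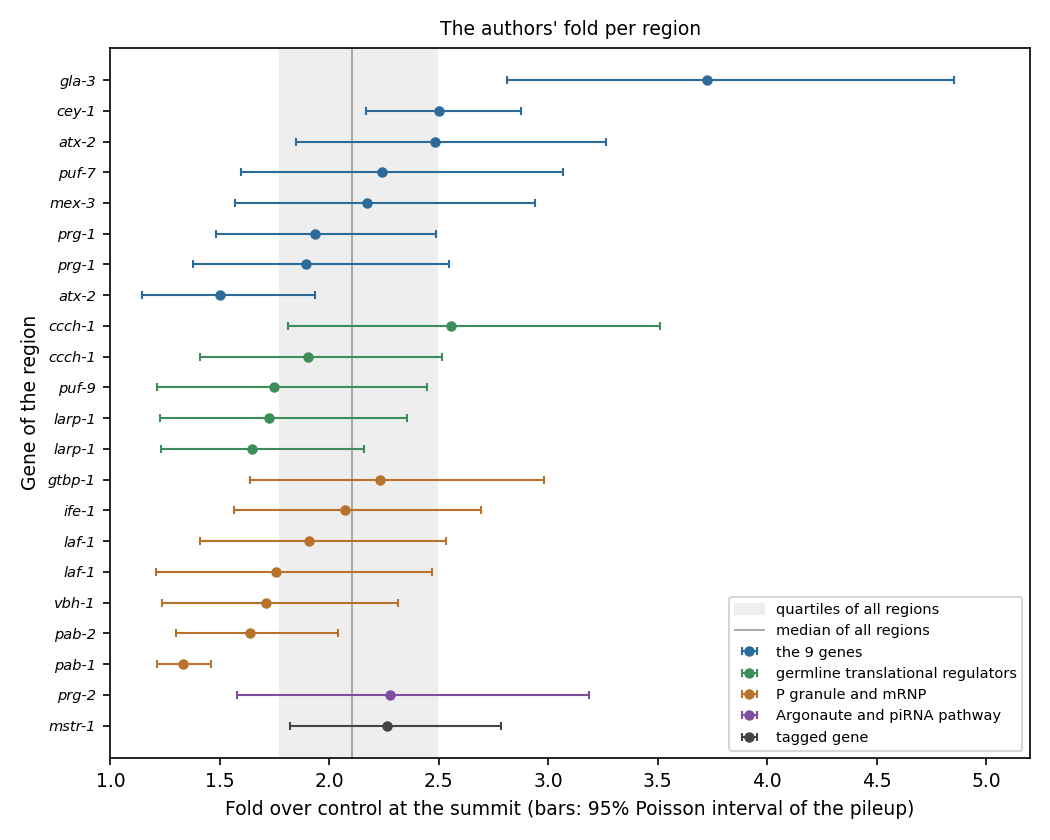
The authors' fold over control for each region of the 9 genes (blue), of the 3 lists of related genes and of the tagged gene mstr-1, with bars for the 95% Poisson interval of the pileup at a fixed control level, over the quartiles (grey band) and median (grey line) of all 1207 regions. The bar of gla-3 lies above the upper quartile of 2.49. The bar of the weaker atx-2 region lies below the median of 2.10 but reaches into the band. The other 6 bars of the 9 genes also overlap the band.

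For scale, the region of mstr-1, the gene of the tagged protein, had a fold of 2.26 from 88 reads (70.6 to 108.4) over 38.3. The folds of gla-3, cey-1 and the stronger atx-2 region were above it and those of puf-7, mex-3, prg-1 and the weaker atx-2 region below. Most of these orders are within counting error. The interval of the fold was 2.17 to 2.87 for cey-1, 1.85 to 3.26 for the stronger atx-2 region and 1.82 to 2.78 for mstr-1. Between neighbours in the order the intervals overlapped in every case. The interval of the gla-3 region (2.81 to 4.85) was clear of those of both prg-1 regions, the weaker atx-2 region and mstr-1. Nothing is read from that gap, because the set was chosen with its folds known and the intervals hold the control level fixed. For the gla-3 region that level is the shared minimum, and the whole region also lies in dhs-3.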

How the data were processed

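STAR and deepTools are named in the submitters' processing notes, without versions. The sources used here do not give the peak caller, the control it used, the genome build or how regions were judged specific to the strain. The authors deposited 1 list without a header, in the layout MACS2 writes for narrow peaks. Per region, the deposited list gives a position, a score (in all 1207 regions the −log10 q-value times 10, without its decimals), a fold over control (a ratio), a −log10 p-value and a −log10 q-value, and an unlabelled whole number. It has no value per library, so depth, replicate spread and the planned comparison of RIP over input between strains could not be had.

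Whole pileups and control levels were recovered with fold = (pileup + 1) / (control + 1) and p as the Poisson probability of more reads than the pileup. They gave the deposited −log10 p-value within 0.001 in 1183 of 1207 regions. The solving was tested on simulated data made with the same formulas, which cannot show that the caller used them. The simulated control levels stopped short of the highest in the list, and that of pab-1 lay above them. Intervals are exact 95% Poisson (reads) or Clopper-Pearson (shares) intervals and cover counting error only. "Like control level" means within 20%.

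Positions are 1-based, with 1 added to each deposited start. They were set against gene spans of RefSeq WBcel235. The gene table used here holds starts and ends without exons or strand, so placement in exon, intron or UTR was not analysed here. The 9 genes and all lists were chosen with earlier results of these data known. Named genes were the 9, genes sharing their regions or nearest to them, mstr-1, and up to 4 genes per list by fold. Genes without a region that are named from the lists, those that share bases with a span only, and pab-1 and pab-2 fall outside this rule and were chosen after their values were seen. 1 listed gene of the piRNA pathway had no match by symbol. Overlaps and intervals were computed in Python 3.11.15 with scipy 1.17.1, pandas 2.3.3 and numpy 2.4.6, and plots with matplotlib 3.10.9.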

Additional observations from a re-analysis of the deposited data

How the results depend on the processing

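Of the 6 genes, all were kept when at least 50% of a region or its summit had to lie in the span. Leaving out regions that share more bases with another gene, or lie over 2 or more protein-coding genes, removed gla-3 and left 5 genes with 7 regions. A fold of at least 2 left 5 genes and 5 regions, without prg-1. A −log10 q of at least 5 left 3 genes, gla-3, atx-2 and cey-1, with 3 regions. With a fold of at least 2, the translational regulators fell from 3 to 1 of 40 genes and the P granule list from 6 to 2 of 30. The share of all protein-coding genes fell as well, from 4.77% to 2.98%. Summits lay in the listed gene for every related gene counted. Without the pseudocount the 8 folds stayed within their counting intervals, at 1.51 to 3.93. The change is small at these read counts, so it could hardly have moved them outside. No paired analysis was possible because the list holds no value per library, so leaving out a replicate was not possible either. Pileups of 37 to 59 reads in 7 of the 8 regions limit the precision of each fold.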
